A study of Homo sapiens with 6 samples.

Results

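Genes of prostaglandin synthesis and response were followed in HUVECs, which are primary human endothelial cells grown from the umbilical vein. The 9 genes were chosen by their function, with earlier results of these data known. They were the cytosolic phospholipases A2 PLA2G4A and PLA2G4C, the cyclooxygenases PTGS1 and PTGS2, and the terminal synthases PTGIS, PTGES, PTGES2 and PTGES3. The prostaglandin receptor gene PTGER4 completed the set. Of the 9 genes, 7 had a row among the 20792 rows of each file, and all 7 were tested with 12216 genes in all. PTGIS and PTGES were not analysed here. One group of 3 libraries came from HUVECs transfected with miR-483. The other 3 libraries came from HUVECs transfected with 8OH-G miR-483, the same microRNA carrying an oxidised form of the base guanine. In both groups the cells had received a transfection reagent and their total RNA was collected at day 2. The scramble control mentioned in the protocol was not analysed here, so a difference can come from either form of the microRNA. Nothing in the labels ties the libraries to separate cultures, so the spread behind each p-value is that between libraries and may be technical. Library totals did not overlap between the groups, at 1396537 to 1440422 FPKM with miR-483 and 1598260 to 1687283 FPKM with 8OH-G miR-483, and mitochondrial rows held 71.3% to 76.6% of them. The library of miR-483 replicate 1 stood apart, with 18129 rows above 0 against 20167 to 20505 in the others. Without it, PTGS1 lost its call and the other 5 genes called below kept theirs. Read depth is unknown, and the part of these differences in the results was not tested.

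Prostaglandins are made in steps. Phospholipase A2 frees arachidonic acid from membrane lipids, cyclooxygenase turns it into the unstable intermediate prostaglandin H2, and a terminal synthase converts that into one final product, such as prostacyclin, prostaglandin E2, prostaglandin D2 or thromboxane. Vascular endothelium is known as a main source of prostacyclin, which relaxes vessels and restrains platelets. The products act on receptors coupled to G proteins, of which the prostaglandin E2 receptor EP4 (PTGER4) raises cyclic AMP.

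The promoter windows of both cyclooxygenase genes are shown first, since PTGS2 had the largest fall of the 7 genes and PTGS1 is its counterpart, followed by that of PTGES3, whose transcript was higher with 8OH-G miR-483. The sequences are those of RefSeq on GRCh38.p14, each running from 250 bases before to 50 bases after an annotated start, 5′ to 3′ on the gene's strand. The deposited data were named to another build, hg19, and gene names alone link them to these windows. Capitals mark every match, on either strand, to TATAAA (the TATA box), CCAAT (the CCAAT box), GGGCGG (the GC box), TGACG (the core of a cyclic AMP response element), CACGTG (an E-box) and TGAGTCA (an AP-1 site). PTGS2 lies at chr1:186680374-186680673 on the minus strand, PTGS1 at chr9:122370283-122370582 (first start) and chr9:122375052-122375351 (second start) on the plus strand, and PTGES3 at chr12:56688235-56688534 on the minus strand.
PTGS2: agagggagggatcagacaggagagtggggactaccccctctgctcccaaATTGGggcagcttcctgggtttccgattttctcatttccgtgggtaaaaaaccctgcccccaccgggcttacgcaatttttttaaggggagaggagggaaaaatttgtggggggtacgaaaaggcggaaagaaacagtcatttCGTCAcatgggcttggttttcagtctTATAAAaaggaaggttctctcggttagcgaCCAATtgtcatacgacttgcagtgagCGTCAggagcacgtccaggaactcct
PTGS1, first start: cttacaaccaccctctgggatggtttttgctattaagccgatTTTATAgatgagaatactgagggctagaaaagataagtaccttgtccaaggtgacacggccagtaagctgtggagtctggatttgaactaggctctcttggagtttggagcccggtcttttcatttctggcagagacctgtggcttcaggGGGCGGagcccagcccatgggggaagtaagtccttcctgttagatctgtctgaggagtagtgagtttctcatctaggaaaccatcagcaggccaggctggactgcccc
PTGS1, second start: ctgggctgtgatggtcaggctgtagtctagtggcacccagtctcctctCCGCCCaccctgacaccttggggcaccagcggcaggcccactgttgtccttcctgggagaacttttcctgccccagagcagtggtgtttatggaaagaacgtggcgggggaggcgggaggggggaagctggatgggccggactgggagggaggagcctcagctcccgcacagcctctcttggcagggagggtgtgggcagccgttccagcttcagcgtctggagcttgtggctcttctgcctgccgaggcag
PTGES3: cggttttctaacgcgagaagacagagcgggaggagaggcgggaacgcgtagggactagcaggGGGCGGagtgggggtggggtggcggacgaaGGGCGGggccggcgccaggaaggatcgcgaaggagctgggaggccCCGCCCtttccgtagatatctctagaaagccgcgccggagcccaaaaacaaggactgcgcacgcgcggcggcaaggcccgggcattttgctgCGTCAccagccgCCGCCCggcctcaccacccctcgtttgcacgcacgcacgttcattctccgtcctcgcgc

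The PTGS2 window held a TATA box 32 bases before the start and CCAAT matches 2 and, on the other strand, 201 bases before it. Its TGACG matches, 58 bases before the start and 25 bases into the transcript, were also on the other strand. The first PTGS1 window held a TATAAA match, on the other strand, 208 bases before the start and a GC box 58 bases before it. The second PTGS1 window held only a GC box, on the other strand, 202 bases before its start. The PTGES3 window held 4 GC boxes, not all on one strand, and a TGACG match, on the other strand, 21 bases before the start. Of 35116 RefSeq promoter windows of this length, 11.5% held TATAAA, 34.6% CCAAT, 45.0% GGGCGG, 24.6% TGACG, 7.26% CACGTG and 4.95% TGAGTCA. The G+C content was 50.7% in the PTGS2 window, 50.7% and 64.7% in the PTGS1 windows and 68.0% in the PTGES3 window, against a median of 58.7% over all windows. These matches describe letters in a window, and nothing in the data shows whether a factor bound there. Windows were found for 7 of the 9 genes, PTGES included, and not for PTGIS or PLA2G4C, so these are not the 7 genes tested.

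The cyclooxygenase transcript PTGS2 and the cytosolic phospholipase transcript PLA2G4A were lower with 8OH-G miR-483, while PTGES2, PTGES3 and the second phospholipase PLA2G4C were higher and the receptor gene PTGER4 did not pass the test. PTGS1 was called lower only narrowly, with overlapping groups, and lost its call in 9 of 13 alternatives, as PLA2G4C did in 3. PTGS2 showed the largest fall, with a 1.63-fold lower mean, and PLA2G4C the largest rise in mean, 1.53-fold. Of 7 genes tested with limma, 3 rose, against a background of 35.0% of all tested genes, and 3 fell, against 20.4%. The groups did not overlap for 5 of the 7, against 63.3% of all tested genes. The median log2 fold change of the 7 was 0.13, beside 0.10 for all tested genes (interquartile range -0.18 to 0.38). So many genes were called in these libraries that nothing particular to the 7 is read from these counts, and the results below are those of single genes. Fold changes in log2 units give the 8OH-G miR-483 group relative to the miR-483 group, computed from log2(FPKM + 1), so changes of low genes come out too small. Other folds are ratios of mean FPKM, a value scaled for gene length and library size.

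**Figure D1:**
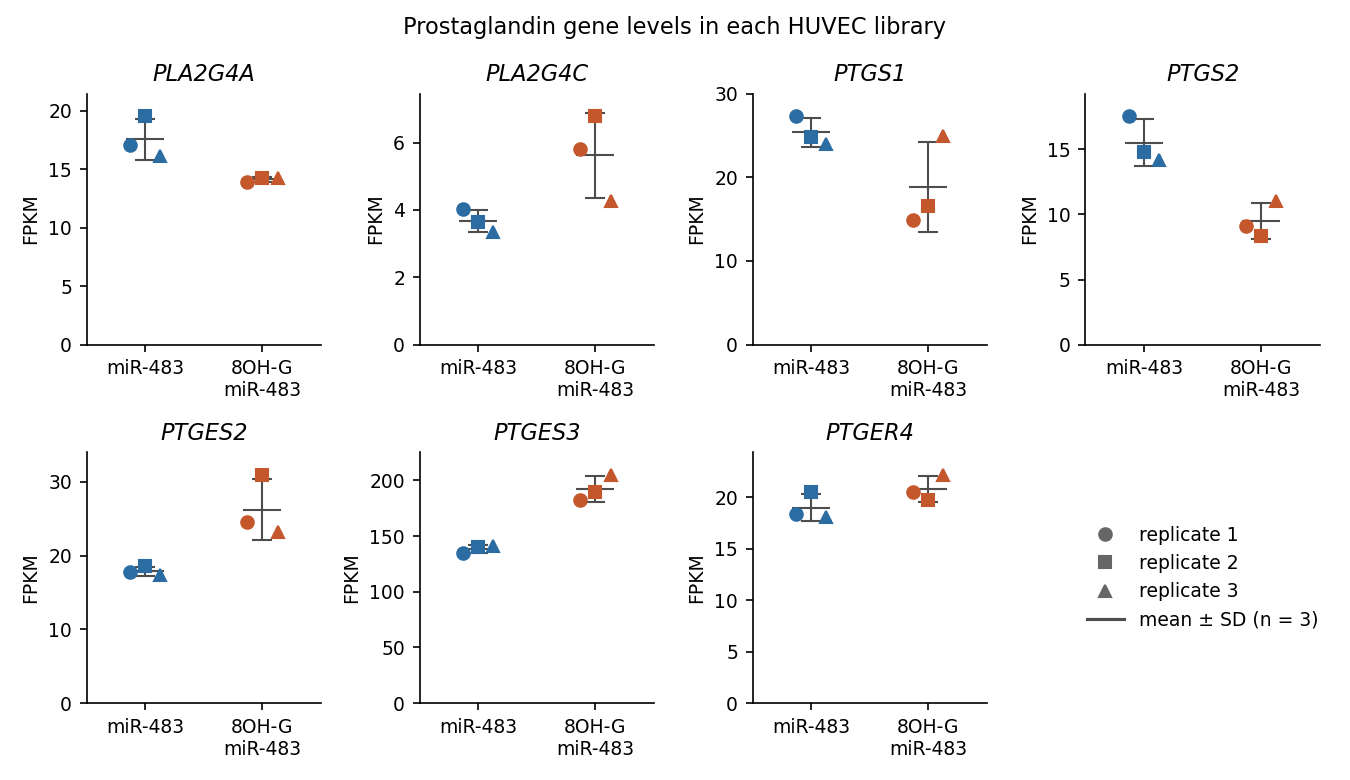
Level of each of the 7 genes in FPKM (vertical axis, starting at 0) in the 3 miR-483 and the 3 8OH-G miR-483 libraries, with symbols for the replicate number and bars for the mean ± SD. The groups do not overlap in PLA2G4A, PLA2G4C, PTGS2, PTGES2 and PTGES3, and they overlap in PTGS1, through 8OH-G miR-483 replicate 3, and in PTGER4.

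The phospholipases supply arachidonic acid. PLA2G4A, the calcium-responsive cytosolic phospholipase A2 alpha, stood at 17.1, 19.5 and 16.1 FPKM in miR-483 replicates 1 to 3 and at 13.9, 14.2 and 14.2 FPKM with 8OH-G miR-483. The 8OH-G miR-483 libraries lay close together, below every miR-483 library, and differed from each other by a coefficient of variation of 1.30%, against 10.1% in the other group. The mean fell from 17.6 ± 1.77 to 14.1 ± 0.184 FPKM (SD, n = 3 libraries per group here and below), a 1.24-fold lower mean and a log2 fold change of -0.29 (SE 0.080, 95% confidence interval -0.47 to -0.11, limma adjusted p = 0.0140). PLA2G4C, the calcium-independent gamma form, had the lowest level of the 7, in the 30.8th percentile of tested genes by mean FPKM. Its values were 4.02, 3.63 and 3.36 FPKM with miR-483 and 5.82, 6.78 and 4.27 FPKM with 8OH-G miR-483. All 8OH-G miR-483 libraries were above all miR-483 libraries, replicate 3 by a small margin. The mean rose from 3.67 ± 0.333 to 5.62 ± 1.26 FPKM, with a log2 fold change of 0.49 (SE 0.137, interval 0.17 to 0.80, limma adjusted p = 0.0155). This call was lost after quantile normalization (adjusted p = 0.0655), without miR-483 replicate 3 (0.0524) and without 8OH-G miR-483 replicate 1 (0.0523).

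PLA2G4C made up 19.1%, 15.7% and 17.2% of the summed FPKM of both phospholipases in the miR-483 libraries and 29.5%, 32.2% and 23.1% in the 8OH-G miR-483 libraries. Its share was 17.3% ± 1.69 and 28.3% ± 4.69, a difference of 10.9 percentage points with no overlap (two-sided exact permutation test over 6 libraries, p = 0.1, the smallest the design allows). This share was computed after the values of both genes had been seen.

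Cyclooxygenase is the committed step, and its forms, one largely constitutive (PTGS1) and one inducible (PTGS2), are the targets of aspirin and related drugs. PTGS2 was at 17.5, 14.8 and 14.2 FPKM with miR-483 and at 9.11, 8.35 and 11.1 FPKM with 8OH-G miR-483. Every 8OH-G miR-483 library was below every miR-483 library. The mean fell from 15.5 ± 1.77 to 9.51 ± 1.39 FPKM, with a log2 fold change of -0.66 (SE 0.113, interval -0.91 to -0.40, limma adjusted p = 0.00129). Across all 13 alternatives the PTGS2 change lay between -0.78 and -0.57 and kept its call.

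PTGS1 was the more abundant form in every library, at 27.3, 24.8 and 24.02 FPKM with miR-483 and 14.9, 16.5 and 24.9 FPKM with 8OH-G miR-483. The first and second 8OH-G miR-483 libraries lay below every miR-483 library, whereas replicate 3 lay within the miR-483 range, so the groups overlapped. The mean went from 25.4 ± 1.70 to 18.8 ± 5.37 FPKM, and the coefficient of variation from 6.70% to 28.6%. The log2 fold change of -0.45 (SE 0.166, interval -0.83 to -0.06) passed narrowly, with a limma adjusted p of 0.0493, and 9 of 13 alternatives ended the call. The adjusted p was 0.0515 with a pseudocount of 0.1, 0.0662 without the filter on low values, 0.0503 with repeated names added and 0.0803 with a replicate block. Leaving out a library gave 0.139, 0.103 and 0.0780 without miR-483 replicates 1, 2 and 3, and 0.151 and 0.156 without 8OH-G miR-483 replicates 1 and 2. Without 8OH-G miR-483 replicate 3 the change was -0.66 and the adjusted p = 0.000570. The lower level of PTGS1 therefore rests on 2 of the 3 8OH-G miR-483 libraries.

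Together the cyclooxygenase transcripts summed to 44.8, 39.6 and 38.2 FPKM with miR-483 and to 24.04, 24.9 and 36.0 FPKM with 8OH-G miR-483. The sum was 40.9 ± 3.46 and 28.3 ± 6.66 FPKM, a difference of -12.6 FPKM without overlap (two-sided exact permutation test, p = 0.1, the smallest possible with 3 against 3). The sum was formed after the values were seen. PTGS2 contributed 39.1%, 37.4% and 37.1% of it with miR-483 and 37.9%, 33.6% and 30.7% with 8OH-G miR-483. These shares overlapped, with means of 37.9% ± 1.07 and 34.1% ± 3.60 and a difference of -3.82 percentage points (two-sided exact permutation test, p = 0.3, where 3 against 3 cannot go below 0.1). The difference was -2.14 points without 8OH-G miR-483 replicate 3 and -5.72 points without 8OH-G miR-483 replicate 1.

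**Figure D2:**
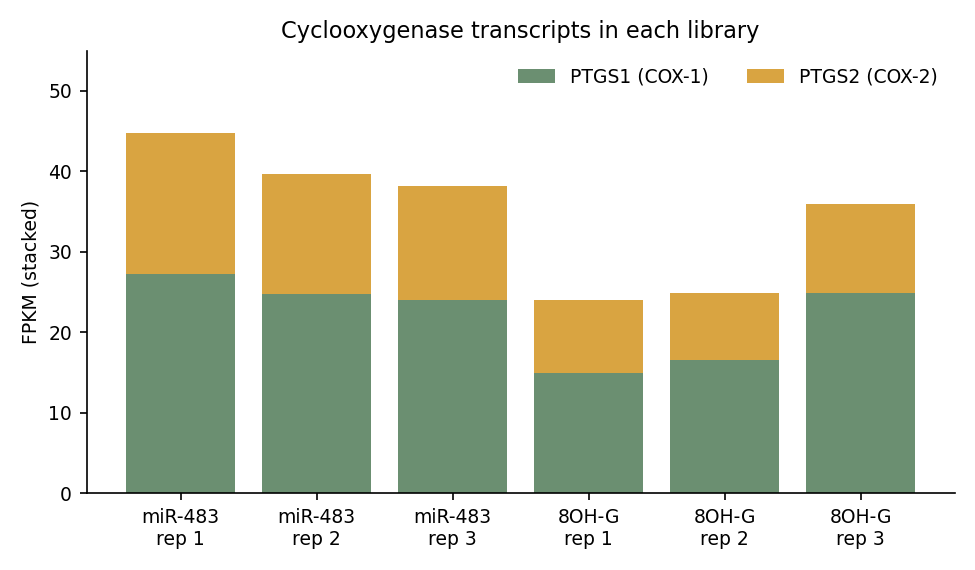
Stacked FPKM of PTGS1 (lower part) and PTGS2 (upper part) in each of the 6 libraries, where 8OH-G stands for 8OH-G miR-483. The sum is 38.2 to 44.8 FPKM with miR-483 and 24.04 to 36.0 FPKM with 8OH-G miR-483, with replicate 3 the highest of the latter.

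The measured terminal synthases both have other known activities. PTGES2 encodes the membrane-associated prostaglandin E synthase 2, whose role in prostaglandin E2 formation in living tissue is debated. Its values were 17.7, 18.6 and 17.4 FPKM with miR-483 and 24.5, 31.0 and 23.3 FPKM with 8OH-G miR-483. The miR-483 libraries lay within a narrow range and all 8OH-G miR-483 libraries lay above it, with replicate 2 the highest. The mean rose from 17.9 ± 0.590 to 26.2 ± 4.13 FPKM, 1.47-fold, with a log2 fold change of 0.52 (SE 0.104, interval 0.28 to 0.76, limma adjusted p = 0.00296). PTGES3 encodes cytosolic prostaglandin E synthase, also known as p23, a co-chaperone of HSP90. It was by far the highest of the 7, in the 97.3rd percentile of tested genes, at 134.6, 140.1 and 141.2 FPKM with miR-483 and 182.6, 189.9 and 205.0 FPKM with 8OH-G miR-483. All 8OH-G miR-483 libraries were higher than all miR-483 libraries by more than the range within either group. The mean rose from 138.6 ± 3.52 to 192.5 ± 11.5 FPKM, 1.39-fold, with a log2 fold change of 0.47 (SE 0.071, interval 0.31 to 0.63, limma adjusted p = 0.000614). Both calls held in all 13 alternatives. The pseudogene rows PTGES3P1 and PTGES3P3 reached at most 3.85 and 0.902 FPKM, and the sources do not say how reads shared with such copies were assigned, so the level of PTGES3 carries that uncertainty.

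PTGES2 made up 11.4% ± 0.4001 of the summed FPKM of PTGES2 and PTGES3 with miR-483 and 12.0% ± 1.92 with 8OH-G miR-483, a difference of 0.575 percentage points (two-sided exact permutation test, p = 0.7). This share was not among those planned.

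PTGER4, the EP4 receptor, was at 18.3, 20.5 and 18.1 FPKM with miR-483 and at 20.5, 19.7 and 22.2 FPKM with 8OH-G miR-483. The groups overlapped. The means were 19.0 ± 1.32 and 20.8 ± 1.25 FPKM, and the log2 fold change was 0.13 (SE 0.076, limma adjusted p = 0.190). The 95% confidence interval of -0.05 to 0.30 bounds the change and does not show that the groups were alike. The value was 0.02 with median-ratio scaling and 0.03 with quantile normalization.

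**Figure D3:**
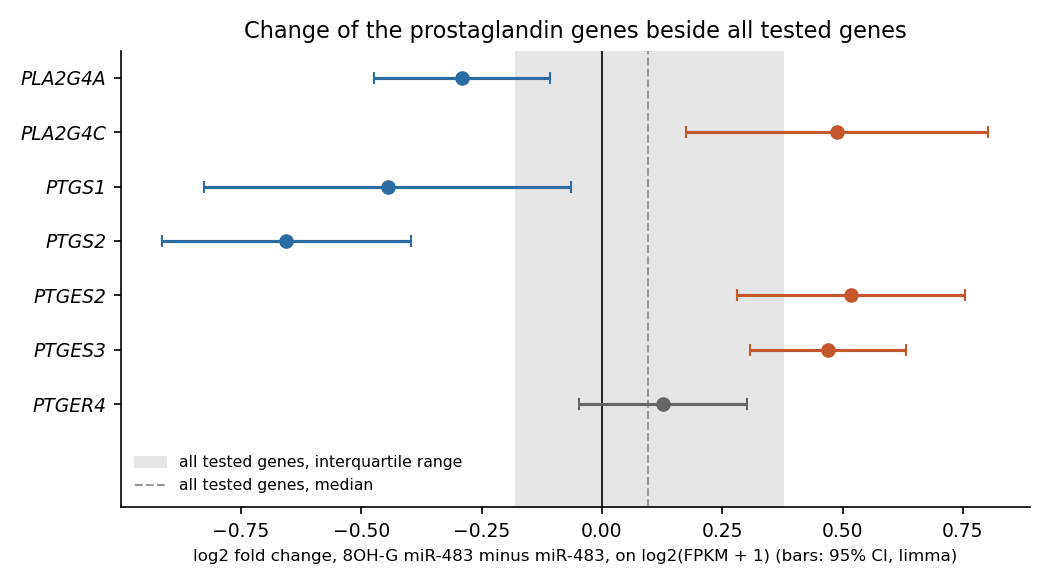
Log2 fold change of each gene (8OH-G miR-483 relative to miR-483) with its 95% confidence interval from limma, blue for lower, orange for higher and grey for not passed. The dashed line and the grey band give the median (0.10) and the interquartile range (-0.18 to 0.38) of all 12216 tested genes.

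If the deposited values are FPKM, as taken here, they are scaled for length and levels can be set side by side between genes. The comparisons of level between genes, here and above, rest on that. With miR-483 the order of mean FPKM was PTGES3, PTGS1, PTGER4, PTGES2, PLA2G4A, PTGS2 and PLA2G4C. The ranges of the neighbours PTGER4 and PTGES2, PTGES2 and PLA2G4A, and PLA2G4A and PTGS2 overlapped there. With 8OH-G miR-483 the order was PTGES3, PTGES2, PTGER4, PTGS1, PLA2G4A, PTGS2 and PLA2G4C. Only PTGER4 and PTGS1 overlapped as neighbours in that group. PTGES2 thus had rank 4 with miR-483 and rank 2 with 8OH-G miR-483, and PTGS1 had rank 2 and rank 4.

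Among the 3 8OH-G miR-483 libraries, replicate 3 lay nearest to the miR-483 mean on the log2(FPKM + 1) scale in 4 of the 6 genes called (PTGS1, PTGS2, PTGES2 and PLA2G4C). Over all 6772 genes called, replicate 3 was nearest in 20.6%, replicate 1 in 43.1% and replicate 2 in 36.3%. Over all called genes it was thus the library least often nearest. Without it, the log2 fold changes were -0.66 for PTGS1, -0.76 for PTGS2, 0.60 for PTGES2 and 0.64 for PLA2G4C. These 4 genes were picked because replicate 3 lay nearest, so larger changes without that library follow from the choice and are no further result.

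**Figure D4:**
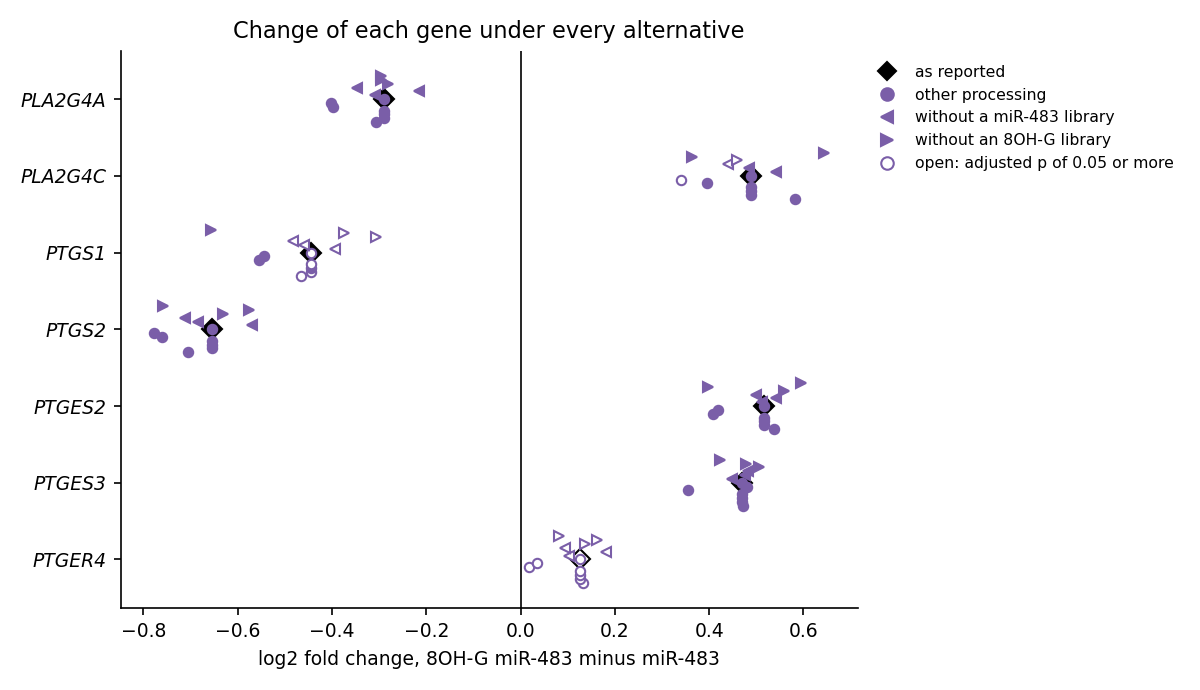
Log2 fold change of each gene as reported (diamond) and under 13 alternatives, with left-pointing triangles for fits without a miR-483 library, right-pointing triangles for fits without an 8OH-G miR-483 library and circles for other processing. Open symbols have an adjusted p of 0.05 or more, as in most PTGS1 fits, in 3 PLA2G4C fits and in all PTGER4 fits.

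By the root mean square difference of log2(FPKM + 1) over the 6 libraries, genes most like PTGS2 in level and change included CYP51A1 (0.10), a cholesterol synthesis enzyme gene, and PHF21A (0.12), a chromatin protein gene. CYP51A1 was at 15.8 ± 0.349 and 9.50 ± 0.608 FPKM and PHF21A at 14.6 ± 0.468 and 9.68 ± 0.381 FPKM with miR-483 and 8OH-G miR-483, respectively. For PTGS1 the nearest were the kinase gene RIOK3 (0.17) and the adaptor gene SH3BP2 (0.17), followed by a row whose name had turned into a date. Likeness in 6 libraries is a description of these values only.

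The rest of the pathway was followed in further lists. Their counts stand beside 35.0% higher and 20.4% lower over all tested genes, and nothing particular to a list is read from them. Counts under the other scalings have another background. Of all 12216 tested genes, 3331 were higher and 3328 lower after median-ratio scaling, and 3295 higher and 3424 lower after quantile normalization. Among other prostanoid synthases, 2 of 7 tested genes rose, 4 fell and the other did not pass. Their median log2 change was -0.52. With a minimum of 1 FPKM in all 6 libraries it was -0.28, over 6 genes with 2 higher and 3 lower. Leaving out miR-483 replicate 1, 2 or 3 gave the same counts, with medians of -0.35, -0.25 and -0.23. The prostaglandin F synthase genes AKR1C3 and AKR1B1 were lower, from 53.5 ± 3.17 to 12.0 ± 1.21 FPKM and from 137 ± 4.22 to 77.0 ± 4.97 FPKM. PTGDS, the lipocalin-type prostaglandin D synthase, fell from 1.505 ± 0.393 to 0.117 ± 0.0385 FPKM. The 3 PTGDS values with miR-483 were 1.27, 1.96 and 1.29 FPKM, and those with 8OH-G miR-483 were 0.162, 0.0993 and 0.0912 FPKM, so it passed the filter on low values only through the miR-483 libraries. GSTM3, a glutathione transferase of a family with close copies, fell from 10.2 ± 1.61 to 6.82 ± 0.602 FPKM. TBXAS1, thromboxane A synthase, rose from 1.41 ± 0.186 to 2.57 ± 0.335 FPKM, and CBR1, a carbonyl reductase that can turn prostaglandin E2 into prostaglandin F2 alpha, rose from 16.4 ± 1.07 to 26.9 ± 1.08 FPKM. AKR1C1, AKR1C2 and AKR1C3 are close in sequence, so their separate levels are uncertain where reads could be shared.

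Genes of prostanoid transport and breakdown went both ways, with 2 of 6 higher and 4 lower and a median of -0.38. Of the 4 lower genes, AKR1C1, AKR1C2 and SLCO3A1 passed the filter on low values only through the miR-483 libraries. They were not tested with a minimum of 1 FPKM in all 6 libraries or without any one miR-483 library, which left 3 genes, 2 higher and 1 lower, with medians of 0.57 and of 0.53 to 0.60. The direction of this list's median therefore depends on the filter. PTGR1, prostaglandin reductase 1, fell from 33.8 ± 2.20 to 26.5 ± 1.78 FPKM and AKR1C2 from 4.55 ± 0.125 to 0.527 ± 0.111 FPKM. The efflux transporter gene ABCC4, which carries prostaglandins out of cells, rose from 4.63 ± 0.285 to 7.40 ± 0.999 FPKM and CBR3 from 1.98 ± 0.736 to 5.84 ± 0.777 FPKM.

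Of the other receptors, 3 were tested. TBXA2R, the thromboxane receptor gene, fell from 2.00 ± 0.0644 to 1.01 ± 0.257 FPKM (log2 fold change -0.59, limma adjusted p = 0.00157). PTGFRN, a regulator that binds the prostaglandin F2 receptor, was at 14.9 ± 0.254 and 14.4 ± 0.928 FPKM and the nuclear receptor gene PPARD at 17.1 ± 0.856 and 18.2 ± 0.911 FPKM, and neither passed. The prostacyclin receptor gene PTGIR and the EP1 gene PTGER1 stayed under 1 FPKM in all libraries, PTGIR at 0.447 to 0.735 and 0.711 to 0.847 FPKM and PTGER1 at 0.432 to 0.532 and 0.124 to 0.276 FPKM, and were not tested. PTGER4 was thus the highest of the prostaglandin E2 and prostacyclin receptor genes that had a row.

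In the list of other phospholipases and lipases tied to arachidonate release, 1 of 12 tested genes rose, 4 fell and 7 did not pass. Each of the other scalings (median-ratio, quantile) gave 1 and 7. The list is wider than enzymes that free arachidonate themselves. It held the phospholipase C genes PLCB1, which fell, and PLCG1, which did not pass. MGLL, monoglyceride lipase, rose from 21.1 ± 1.39 to 41.8 ± 6.64 FPKM. The patatin-like lipase genes PNPLA6 and PNPLA2 fell from 77.0 ± 0.771 to 47.1 ± 2.47 FPKM and from 55.03 ± 2.36 to 33.2 ± 4.85 FPKM, and the calcium-independent PLA2G6 fell from 3.06 ± 0.131 to 2.09 ± 0.144 FPKM. Of the genes that activate arachidonate or return it to lipids, 5 of 12 were higher and 5 lower, with a median of 0.12. Without miR-483 replicate 1 the counts were 5 and 3 of 11 with a median of 0.29, and without miR-483 replicate 3 they were 4 and 3 of 11. Median-ratio scaling and quantile normalization gave medians of 0.03 and 4 higher and 5 lower. ACSL4, the acyl-CoA synthetase that prefers arachidonate, rose from 15.3 ± 0.111 to 23.6 ± 2.19 FPKM. FADS2, the delta-6 desaturase of arachidonate synthesis, fell from 32.5 ± 4.29 to 19.8 ± 1.49 FPKM, LPCAT2, a lysophospholipid acyltransferase, from 20.7 ± 1.28 to 14.7 ± 0.635 FPKM, and ACSL5, which passed the filter only through the miR-483 libraries, from 1.45 ± 0.150 to 0.639 ± 0.105 FPKM.

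**Figure D5:**
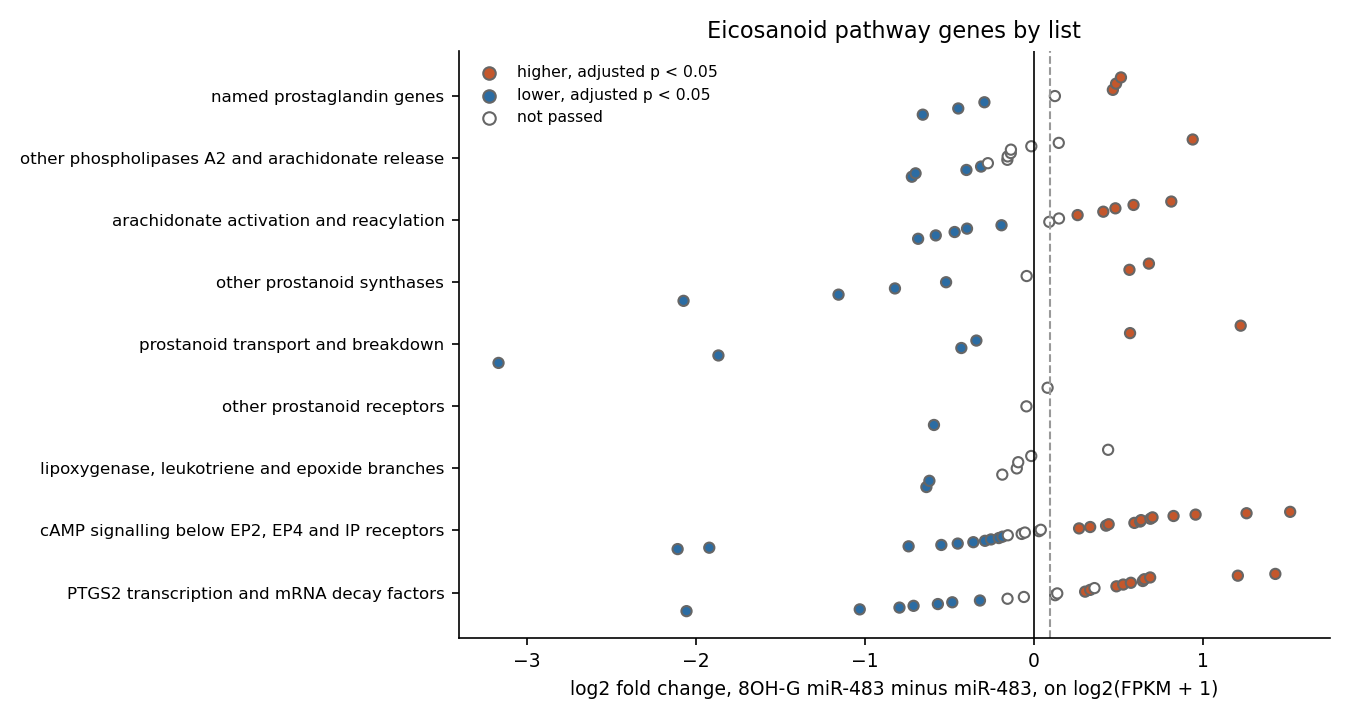
Log2 fold change (horizontal axis) of each tested gene, 1 point per gene, in the 7 named genes and the further lists, orange where higher, blue where lower and white where not passed. The dashed line is the median of all tested genes, 0.10; points run from -3.17 (AKR1C1) to 1.52 (PDE3A).

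EP4 and the prostacyclin receptor signal through cyclic AMP. Of 28 tested genes of this pathway, 13 rose, 10 fell and 5 did not pass, whereas 11 rose and 11 fell with either of the other scalings. Without miR-483 replicate 1, 13 rose and 6 fell. The phosphodiesterase genes PDE3A and PDE7B, which break down cyclic AMP, rose from 2.07 ± 0.193 to 7.80 ± 0.347 FPKM and from 1.63 ± 0.215 to 5.29 ± 0.407 FPKM. ADCY4, an adenylyl cyclase that makes it, fell from 54.7 ± 2.42 to 12.1 ± 2.28 FPKM, and RAPGEF4, the cyclic AMP sensor EPAC2, fell from 10.4 ± 0.883 to 2.01 ± 0.282 FPKM. Other members of these families went the other way: ADCY3 rose from 6.46 ± 0.490 to 13.5 ± 0.358 FPKM and PDE4A fell from 5.72 ± 0.193 to 4.65 ± 0.208 FPKM, both named after their values were seen.

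Among factors known to act on PTGS2 transcription or on the decay of its messenger RNA, 10 of 22 rose and 7 fell, and the median was 0.22. Median-ratio scaling gave 8 and 8 instead, and quantile normalization 8 and 7. With a minimum of 1 FPKM in all 6 libraries, 9 of 20 rose and 6 fell. That left out EGR1 and CEBPD, of which CEBPD passed the main filter only through the miR-483 libraries. The median was 0.37 without miR-483 replicate 1 and 0.08 without 8OH-G miR-483 replicate 3. TSC22D3, the glucocorticoid-induced leucine zipper, fell from 19.3 ± 1.26 to 3.91 ± 0.622 FPKM and the RNA decay factor gene ZFP36L2 from 29.8 ± 0.907 to 14.2 ± 2.28 FPKM. FOSL1, an AP-1 subunit, rose from 30.8 ± 0.856 to 73.0 ± 10.8 FPKM, and EGR1 was at 0.102 ± 0.0549 and 1.97 ± 0.207 FPKM, passing the filter through the 8OH-G miR-483 libraries. Whether any of them bears on PTGS2 was not tested.

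As a check of the label, all 12 endothelial markers had a row and were above 1 FPKM in at least 1 library. Their summed level was 2400 to 2421 FPKM with miR-483 and 1485 to 1747 FPKM with 8OH-G miR-483. The sum leans on high markers such as VWF, whose mean was 509 and 243 FPKM in these groups. Of these 12 markers 7 fell, beside 20.4% of all tested genes. The other 5 (KDR, EGFL7, ESAM, CLDN5 and ERG) did not pass. Of 22 genes listed as markers of other cells, 8 had a row with a single name. Among them 5 of 7 tested fell, or 3 of 6 without miR-483 replicate 1 or 2. The list included PROX1 and LYVE1, which mark lymphatic endothelium, so its sum is not one of non-endothelial cells alone. LYVE1 went from 22.5 ± 1.63 to 13.5 ± 2.48 FPKM and COL3A1 from 2.33 ± 0.0651 to 1.26 ± 0.0851 FPKM. ACTA2, at 1.85 and 1.82 FPKM, and TAGLN, at 2.49 and 2.46 FPKM, did not pass. DCN, at 0.0856 and 0.307 FPKM with overlapping groups, was not tested. LYZ, a lysozyme gene of myeloid cells, went from 4.03 ± 0.339 to 0.109 ± 0.0955 FPKM and passed the filter only through the miR-483 libraries. The 8 markers summed to 48.8 to 52.0 FPKM with miR-483 and 27.6 to 31.5 FPKM with 8OH-G miR-483. None of the 8 was at 0 in all libraries, 1 was under 1 FPKM in all, and such defining markers as PTPRC, CD14 and COL1A1 were not analysed here. In bulk RNA, fewer cells of a type and less RNA per cell cannot be told apart. The part of these marker changes in the prostaglandin results was not tested.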

How the data were processed

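The 6 libraries were RNA sequencing of HUVECs. The deposited values carry no unit and were taken as FPKM, computed by the authors in a way the labels do not record, from fractional values whose library totals ran from 1396537 to 1687283. Per the submitters' processing notes, the tools included STAR, HTSeq, cutadapt and DESeq2 with build hg19, without order or parameters. The strand setting and the handling of shared reads are not stated. Names occurring once (17588 rows) were kept, date-like names included. The 748 repeated names (3204 rows) were left out and added back as an alternative. Tests covered genes reaching 1 FPKM in 3 or more libraries and used log2(FPKM + 1) and limma 3.58.1 (R 4.3.3, robust shrinkage with a trend, group as the only term, two-sided), with Benjamini-Hochberg adjustment over all 12216 genes and a threshold of 0.05. The 9 genes and the lists were chosen with earlier results of these data known. In each list, up to 4 genes with the smallest p are named, besides synthases, receptors and breakdown enzymes given by value. The genes most like PTGS1 and PTGS2 were the 3 nearest to each, of which 1 is not reported here. Promoter windows came from RefSeq (GRCh38.p14), matched by symbol. A share of PTGIS with PTGES and a search for miR-483 seed matches were planned and not made. MIR483 was named in no sequence table used here. Figures were drawn in matplotlib 3.10.9 under Python 3.11.15.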

Additional observations from a re-analysis of the deposited data

How the results depend on the processing

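Alternatives were a pseudocount of 0.1, other filters on low values, a replicate block, each library left out, 2 scalings and repeated names. PTGS2, PTGES2, PTGES3 and PLA2G4A kept direction and call in all 13, PLA2G4C in 10 and PTGS1 in 4. PTGER4 did not pass in any. None of the 7 changed sign. Median-ratio scaling and quantile normalization shifted the overall median by -0.10 and -0.11 (log2), and gave 3331 higher and 3328 lower and 3295 higher and 3424 lower genes, against 4279 and 2493. The share of calls that were higher was 63.2% and fell to 49.0% with the latter. Same-numbered libraries of the groups did not deviate together in every case (correlations of 0.025, 0.339 and 0.009 over genes). Not every library correlated best with its own number. With 3 libraries per group these values cannot decide whether the numbers pair the libraries, and the labels do not say. With the replicate block, 4635 genes were higher and 2677 lower, and of the 7 genes 3 were higher and 2 lower. The difference in PTGS2 share ran from -5.72 to -2.14 percentage points with a library left out. The seed-match alternative was not run. Unknown depth leaves precision to the spread of 3 libraries per group.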

Other observations

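The branches of arachidonate metabolism that bypass cyclooxygenase were also measured. Of 7 tested genes of the lipoxygenase, leukotriene and epoxide branches, 2 fell, 0 rose and 5 did not pass in limma, with a median log2 fold change of -0.10. Over all tested genes 20.4% fell and 35.0% rose. LTA4H, leukotriene A4 hydrolase, which makes leukotriene B4, fell from 48.0 ± 3.34 to 31.2 ± 4.89 FPKM (n = 3 libraries per group), and EPHX1, microsomal epoxide hydrolase, from 23.8 ± 1.05 to 15.0 ± 1.122 FPKM. Both calls held in all 13 alternatives. After quantile normalization 4 of the 7 fell, beside 3424 lower and 3295 higher of all 12216 tested genes. With the replicate block 1 rose and 2 fell, beside 4635 higher and 2677 lower of all tested genes. Likewise 1 rose and 2 fell without miR-483 replicate 2 or without 8OH-G miR-483 replicate 3, and the latter moved the median to -0.03.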
